A study of Caenorhabditis elegans with 2 samples.

Results

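The regions described here are the entries of a chromatin immunoprecipitation list whose summit, the authors' point of highest signal, lay inside a protein-coding exon. Of 21755 nuclear entries in the list pooled from both replicates, 4093 met this rule. The experiment recovered CEH-14, a LIM homeobox protein, from whole late embryos of hermaphrodite Caenorhabditis elegans of strain OP315, 5 hours after synchronization by egg bleaching. The strain is a stable transgenic line whose CEH-14 carries GFP and FLAG at the C-terminus, and an anti-GFP antibody was used on sonicated chromatin, while a further antibody field names ceh-14 itself. The 2 samples are biological replicates of this 1 group, per the labels, and no untagged or input library was analysed here. All cells of the embryo were pooled, so signal from a few CEH-14-expressing cells and from many cells cannot be told apart, and lists of regions hold no expression with which to check the stage. The pooled list is a relaxed one that holds background regions as well as peaks, and it gives no read numbers, so the depth behind an entry is unknown.

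CEH-14 binds DNA through a homeodomain and helps to set the identity of neurons such as AFD, ALA and BDU. Sites bound by such factors are mostly met in non-coding sequence near genes, whereas coding exons carry the codons of a protein and are richer in G and C than the introns and intergenic sequence of the worm. A summit inside an exon marks where recovery was highest, and it need not be a site of direct binding.

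Of the 8 strongest coding entries 6 are shown, as the summit with 50 bases on each side, to let a reader see what lay at the centre of a coding entry. Sequence is from the RefSeq copy of the assembly WBcel235, the same as ce11, written 5′ to 3′ on the strand of the host gene, with coding bases in capitals.
pks-1 (chrX:5429515-5429615, plus strand): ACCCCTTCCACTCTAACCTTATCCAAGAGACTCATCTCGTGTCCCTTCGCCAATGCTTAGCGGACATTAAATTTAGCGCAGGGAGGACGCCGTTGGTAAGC
ril-2 (chrV:12596950-12597050, minus strand): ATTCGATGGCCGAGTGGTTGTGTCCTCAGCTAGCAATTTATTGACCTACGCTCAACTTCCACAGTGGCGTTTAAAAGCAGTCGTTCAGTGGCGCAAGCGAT
ZK112.4 (chrIII:7729681-7729781, minus strand): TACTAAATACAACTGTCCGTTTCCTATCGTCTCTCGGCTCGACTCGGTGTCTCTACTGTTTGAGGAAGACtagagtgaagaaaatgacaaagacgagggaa
C28A5.6 (chrIII:4426713-4426813, minus strand): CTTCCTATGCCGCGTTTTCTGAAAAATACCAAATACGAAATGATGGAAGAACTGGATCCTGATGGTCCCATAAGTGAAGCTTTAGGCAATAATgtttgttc
pals-26 (chrIII:4378749-4378849, plus strand): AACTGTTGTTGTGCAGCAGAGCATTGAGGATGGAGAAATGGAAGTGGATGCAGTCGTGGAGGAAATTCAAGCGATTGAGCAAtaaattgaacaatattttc
F54F2.6 (chrIII:8800464-8800564, minus strand): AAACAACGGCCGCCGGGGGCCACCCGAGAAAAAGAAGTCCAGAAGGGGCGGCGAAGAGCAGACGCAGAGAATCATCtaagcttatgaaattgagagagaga
Coding bases filled the windows in pks-1 and ril-2, though the ril-2 summit was coding in only some of the transcripts spanning it. In ZK112.4, pals-26 and F54F2.6 the coding sequence ended inside the window, past the summit, and in C28A5.6 the window reached into an intron. The coding share of a window was 88.5% over all 4093 entries.

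The 2 coding entries with the highest signal values were in Y54E10A.11 and pks-1. The entry in Y54E10A.11 (I, 3176478 to 3176681) lay in the last of 14 coding exons, with a signal value of 199.6 and rank 157 in the pooled list. It was 204 bases wide, whereas the other 4092 coding entries were all 456 bases wide with the summit at the middle. By any overlap it ranked 176 in the list of replicate 1 and 139 in that of replicate 2. The gene pks-1 encodes a polyketide synthase that acts with a peptide synthetase to make the nemamides. Its entry (X, summit 5429565) lay in coding exon 22 of 30, 9994 bases from the nearest annotated transcript start, at a signal of 182.3. It ranked 199 in the pooled list, 308 in replicate 1 and 154 in replicate 2. Both entries were high in each replicate.

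In all, 20 coding entries belonged to the authors' shorter list of reproducible peaks, made with the irreproducible discovery rate (IDR), which weighs the order of peaks in one replicate against that in another. This was 0.489% of the coding entries, against 9.35% of the 17662 entries outside coding exons and 7.68% of all nuclear entries. IDR peaks are the strongest entries of the same pooled list, so this share describes rank. Of the 20, 2 lay in first, 10 in inner and 4 in last coding exons, and 4 in genes with a single coding exon. Within 500 bases of an annotated start lay 15 of them, and for 6 of these 15 the nearest start was that of a non-coding gene. The summit in ril-2 (rank 537) was 23 bases from a snoRNA start. That in hgo-1, which encodes the homogentisate oxidase of tyrosine breakdown (rank 1547), was 44 bases from a tRNA start, and that in F22B7.9 (rank 1599) was 118 bases from another. The summit in Y56A3A.7 (rank 1678) was 58 bases from the start of a microRNA gene. Those in C28A5.6 (rank 950) and pals-26 (rank 1012) were 87 and 407 bases from starts of genes annotated as ncRNA. In all of these but pals-26 the start of the other gene lay inside the entry.

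Most of the other strongest entries were close to the host gene's own start or far inside it. The summit in Y54E10A.11 was 244 bases from the start of a neighbouring gene, Y54E10A.10. Near their own start were the summits in Y18D10A.4 (197 bases, rank 918), F54F2.6 (187 bases, rank 1153), F41F3.3 (150 bases, rank 1186) and ZC477.4 (64 bases, rank 1554). The summit in memb-1, which encodes a membrin-type SNARE protein of the Golgi, lay 17 bases from its start, with rank 1658. It was uneven between replicates, with rank 8393 in replicate 1 and rank 945 in replicate 2. The summit in bca-2, a beta carbonic anhydrase gene, lay 58 bases from a start of its own (rank 1347), and that in Y43F8B.1 430 bases (rank 1628). Over 1000 bases from any start were those in sftd-3 (1106 bases, rank 1514), golg-4 (1627 bases, rank 1551) and hda-10 (1988 bases, rank 1640), a gene of the histone deacetylase family. The single-exon gene ZK112.4 (rank 700) had its summit 280 bases from its own start, at 93.5% of its coding sequence. The collagen gene col-107 (rank 1513) completes the 20.

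Coding exons held fewer entries than their length in the genome, and the shortfall was largest among the strongest entries. Coding bases make up 24.6% of the nuclear genome, and 18.8% of nuclear entries had their summit there (Wilson 95% interval 18.3 to 19.3%, for counting error only). In the list of replicate 1 the share was 20.6% (4376 of 21216) and in that of replicate 2 18.7% (3656 of 19564). Among the nuclear IDR peaks it was 1.20% (20 of 1671), and from there to rank 5000 it was 12.1% (403 of 3318). It was 20.7% between ranks 5000 and 10000, 21.2% between ranks 10000 and 15000 and 23.2% (interval 22.2 to 24.2%) below rank 15000. The same order from the strongest ranks to rank 15000 was met in each replicate's own list, with 2.56% and 16.8% in the first bands of replicate 1 and 1.62% and 12.7% in those of replicate 2. Thus 423 of the coding entries stood among the 5000 strongest entries.

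**Figure D1:**
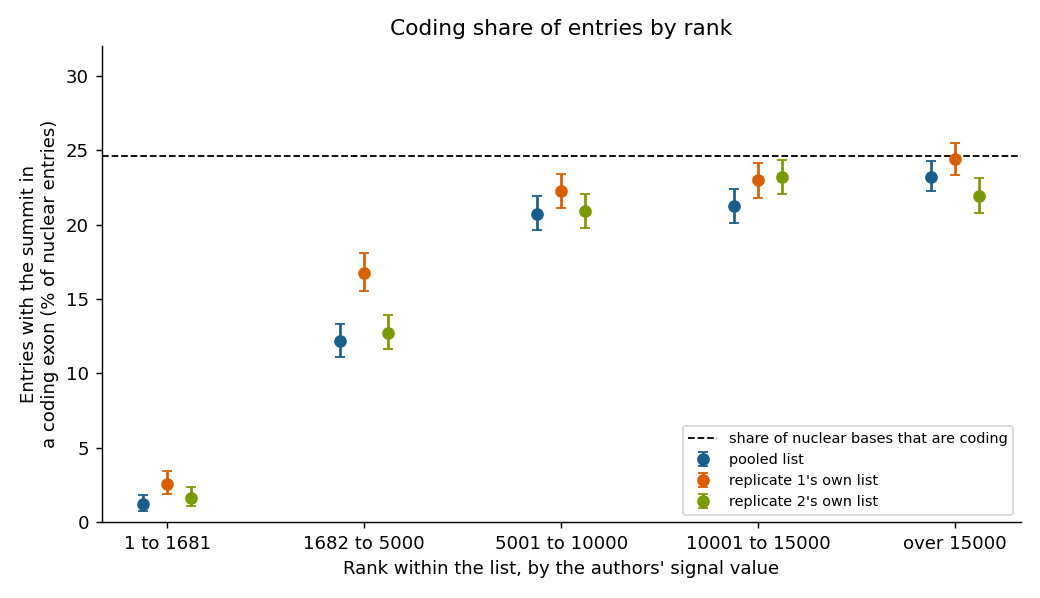
Share of nuclear entries whose summit lay in a coding exon (percent, y axis) by rank within the pooled list and within each replicate's own list (x axis). Points are shares, bars are Wilson 95% intervals, and the dashed line is the 24.6% of nuclear bases that are coding. The pooled share is 1.20% at the strongest ranks and 23.2% at the weakest.

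Signal values of coding entries were low and closely packed. The signal value is the authors' own and ranks entries within one list only. Coding entries had a median of 29.0 (quartiles 25.1 and 35.4, range 22.4 to 199.6), against 31.8 for all other nuclear entries. Among the other classes, entries upstream of genes had a median of 35.7, those in introns 30.03, those in untranslated regions 30.9, other intergenic entries 30.8 and those in exons of non-coding genes 40.7. Coding entries therefore had the lowest median of the 6 classes in the pooled list. The same held in replicate 1, with 16.2 for coding entries and 16.5 for introns, the next lowest, and in replicate 2, with 18.2 and 18.8. The 378 coding entries with a summit within 10 bases of a coding boundary had a median of 28.5, and the 389 other entries within 10 bases outside one had a median of 28.8. Within 50 bases of a boundary lay 1729 coding summits (42.2%) and 1656 other summits (9.38%). The class of these entries rests on the placement of the summit to within 50 bases.

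Within genes, first and last coding exons held more coding entries, and inner coding exons fewer, than their share of coding length. Coding bases by exon position were counted in each gene's longest coding transcript. An entry was classed in the longest one holding its summit, which can be a shorter transcript. Entries in exons of other transcripts thus have no coding bases beside them, and how much this adds to the differences was not tested. First coding exons held 559 entries, 13.7% against 10.9% of coding bases. Last coding exons held 835 (20.4%, interval 19.2 to 21.7%) against 15.3% of coding bases. Inner coding exons held 2631 (64.3%, interval 62.8 to 65.7%) against 72.9%, and genes with a single coding exon held 68 (1.66% against 1.01%). The order was the same in the replicates' own lists, where last exons held 18.5% in replicate 1 and 19.1% in replicate 2, and inner exons 66.8% and 65.4%. From the IDR peaks to rank 5000 the last exons held 25.3% and the inner exons 55.8%. Cut into 10 equal parts from start to stop, the coding sequence had 505 entries (12.3%) in its first part, 344 (8.40%) in part 4 and 491 in its last. Parts 2 to 5 held 8.40% to 9.09% each, and parts 6 to 9 held 9.97% to 10.4%, near an equal share.

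Closeness to a transcript start went with first exons and with the strongest ranks. Of the 4093 coding entries, 1442 (35.2%, interval 33.8 to 36.7%) lay within 500 bases of an annotated start, against 32.02% of coding bases. This was so for 15 of the 20 IDR members, and the share lay between 34.6% and 36.7% in each of the other bands of rank. First-exon entries lay within 500 bases of a start in 92.8% of cases, inner-exon entries in 25.1% and last-exon entries in 24.6%. For the 1442 entries near a start, the nearest start belonged to a non-coding gene in 210 (14.6%), against 16.7% of the coding bases near starts. Long exons were favoured a little: 12.6% of entries lay in exons over 800 bases, which hold 10.5% of coding bases. Exons of 200 bases or fewer held 35.6% of entries and 39.1% of coding bases. The coding status of the summit was shared by every transcript spanning it in 3817 entries and by some only in 276, and in 27 a non-coding exon covered the same base. Among the IDR members, the summits in ril-2, bca-2, sftd-3, Y43F8B.1 and Y56A3A.7 were coding in some transcripts only.

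Replicates met coding entries less often than other entries over the whole list, and about equally often at a given rank. A match needed an overlap of 50% of the length of both entries. By this rule replicate 1 met 2601 coding entries (63.5%), replicate 2 met 2502 (61.1%), and both met 1413 (34.5%, interval 33.1 to 35.99%), against 45.8% of other entries and 43.7% of all nuclear entries. By band of pooled rank, from strongest to weakest, the share met in both was 19 of 20, 92.8%, 60.3%, 24.6% and 8.53% for coding entries. For other entries it was 92.0%, 91.4%, 59.3%, 26.5% and 9.89%. In every band the interval of the coding share held the share of the other entries. The pooled list derives from both replicates, so these shares are a description and not an independent check. Among entries met in both replicates, the signal values of replicate 1 and replicate 2 had a Spearman's rho of 0.30 over 1413 coding entries and 0.64 over 8094 other entries. Coding entries span a narrower range of signal, and the points share libraries and neighbouring regions.

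Set directly against each other, the replicates' own lists shared a smaller part of their coding than of their other entries. These shares are not matched for rank. Coding entries stood lower in both lists, with median rank percentiles of 56.6 against 48.0 in replicate 1 and 58.7 against 47.5 in replicate 2. Of 4376 coding entries of replicate 1, 31.2% were met in replicate 2, against 46.4% of its other entries. Of 3656 coding entries of replicate 2, 37.7% were met in replicate 1, against 49.1% of its other entries. When a coding entry was met, the matching entry also had a coding summit in 74.7% of cases for replicate 1 looked up in replicate 2, and in 74.4% the other way round.

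Single coding entries could differ widely in rank between the replicates. Those that stood highest in replicate 1 relative to replicate 2 were in rad-23, a gene of ubiquitin-linked protein turnover and DNA repair, with ranks 2887 and 19501, in col-135, with ranks 2593 and 19129, and in swsn-7, which encodes a subunit of the SWI/SNF chromatin remodelling complex, with ranks 2868 and 19256. The reverse was met for col-156, with rank 20583 in replicate 1 and 2756 in replicate 2, for an entry in the chaperone gene hsp-90, with ranks 20043 and 3130, and for T06E8.2, with ranks 17964 and 1215. Their pooled ranks lay between 2443 and 5251. None of these 6 entries belonged to the IDR peaks.

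Coding summits sat in GC-rich sequence. The bases within 50 of them had 46.6 ± 9.15% GC (mean and SD over 4093 entries), against 39.5 ± 7.72% in flanks of the same length centred 300 bases away. The window was above its flanks in 76.3% of coding entries, against 59.3% of all other entries, whose windows had 39.4% and flanks 36.2%. This was not particular to coding entries. Among the others, entries in exons of non-coding genes had windows of 47.1% and flanks of 36.8%, with the window above in 83.3%. The flanks reached further into non-coding sequence, since 88.5% of window bases but 47.0% of flank bases were coding. Counting coding bases alone, windows had 48.7 ± 8.23% GC, against 46.4 ± 8.05% in the flanks of the 3432 entries whose flanks held any, and 42.9% in all coding bases of the genome. The host exon as a whole had 47.7 ± 6.54%, which the window, non-coding bases included, did not exceed on average. Strong entries were richer than weak ones, with 52.1 ± 9.51% GC from the IDR peaks to rank 5000 and 44.8 ± 8.51% below rank 15000. Replicate 1 alone gave 45.8% and replicate 2 alone 46.0%.

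**Figure D2:**
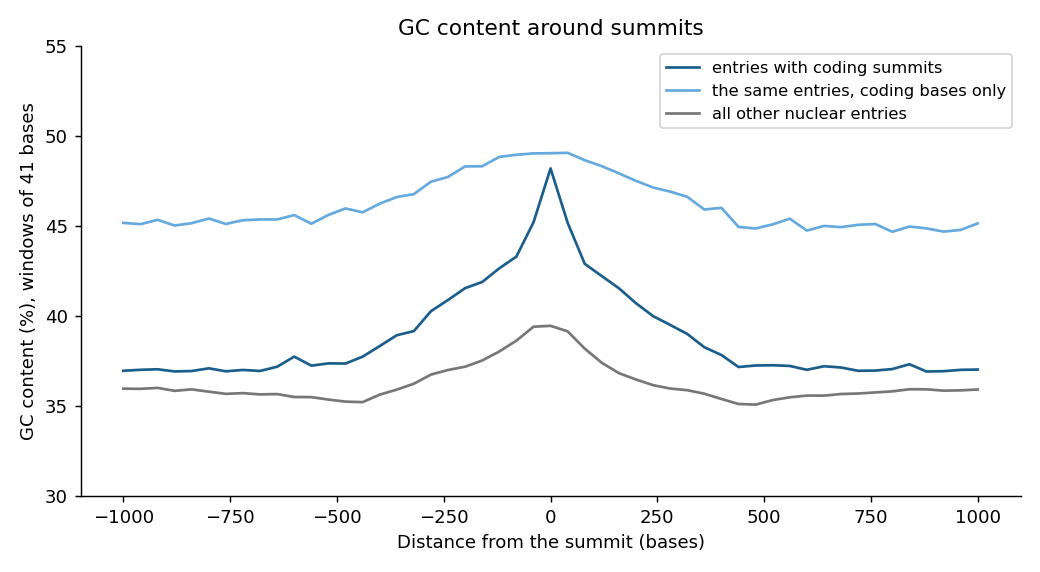
GC content (percent, y axis, windows of 41 bases) against distance from the summit in bases (x axis), for entries with coding summits, for the coding bases of the same entries alone and for all other nuclear entries. Lines are means over entries for the first and last and pooled bases for the middle one. Coding entries peak at 48.2% at the summit and stand at 37.03% at 1000 bases downstream in the assembly, while their coding bases alone stay above 44%.

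Coding entries were denser, as a class average, in genes whose coding sequence had a higher GC content. Leaving the cuticle collagen genes aside, genes with under 40% GC had 0.0680 coding entries per 1000 coding bases, and 7.16% of 5687 such genes had one. From 40 to under 45% GC the density was 0.112, from 45 to under 50% it was 0.261, and from 50 to under 55% it was 0.508. Genes with 55% GC or more had 0.917 entries per 1000 coding bases, and 94 of 225 (41.8%, interval 35.5 to 48.3%) had one. The density was higher in each richer class in the replicates' own lists too, where the lowest and highest classes had 0.0824 and 0.876 in replicate 1 and 0.0674 and 0.807 in replicate 2. Among the 5000 strongest entries the same classes had 0.00279 and 0.239. GC content moves with these densities, and its part in the results was not tested.

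**Figure D3:**
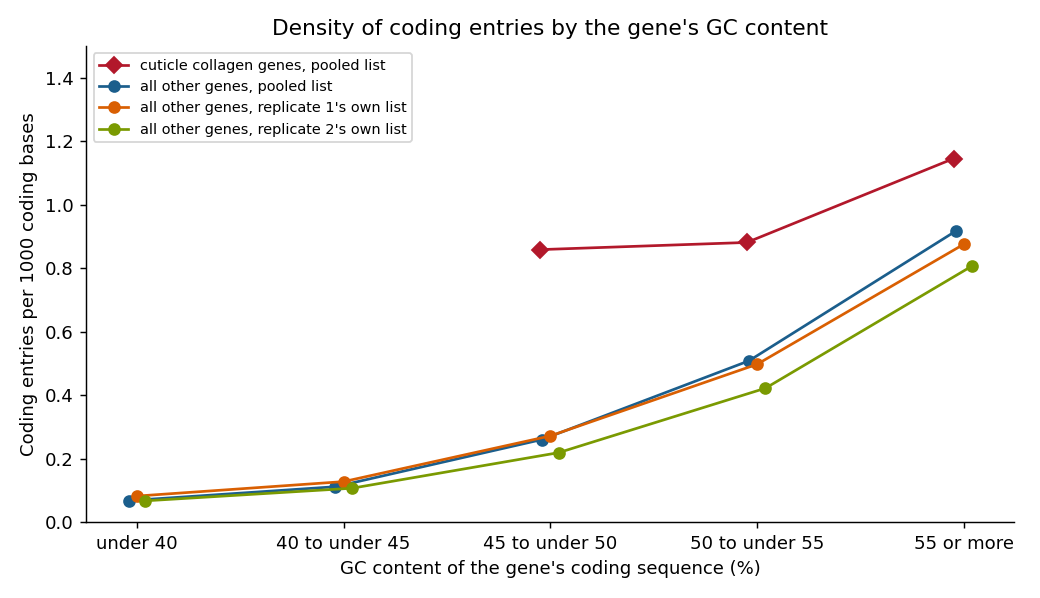
Coding entries per 1000 coding bases (y axis) by the GC content of the gene's coding sequence (x axis, percent), for cuticle collagen genes in the pooled list and for all other genes in the pooled list and in each replicate's own list. Collagen classes with under 20 genes are not drawn. In the pooled list other genes have 0.0680 in the poorest class and 0.917 in the richest, and collagen genes have 0.859 to 1.15.

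Coding entries were spread over 3228 of 19973 nuclear protein-coding genes (16.2%). Of these hosts, 2619 had 1 coding entry, 451 had 2 and 158 had 3 or more. Hosts were longer, with a median coding length of 1354.5 bases against 990 for all genes. The share of genes with an entry was 5.89% for those of 500 coding bases or fewer and 50.2% for those over 4000 bases, while entries per 1000 coding bases lay between 0.157 and 0.187 in all 5 classes of length. Hosts more often also had an entry outside coding exons within 1000 bases of a start, in 49.6% of host genes against 33.6% of the genes without a coding entry. Where a gene held neighbouring coding entries, 238 of 865 such pairs overlapped, so counts per gene are not counts of separate places. An entry of a replicate can likewise match more than 1 pooled entry.

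The 5 genes with most coding entries all have long coding sequences. The spectraplakin gene vab-10, whose product links the cytoskeleton to attachment structures, had 12 coding entries over 23447 coding bases, with signal values of 25.1 to 67.6, and 9 were met in both replicates. Talin, the product of tln-1, ties integrins to actin. That gene had 9 over 7901 coding bases, 7 of them met in both replicates, with signal values of 23.5 to 54.5. The gene of myotactin, let-805, had 8, all in inner exons, with signal values of 22.9 to 68.0, of which 3 were met in both. The type IV collagen gene let-2, a basement membrane component, had 7 in 5385 coding bases, the strongest with rank 1865 in the pooled list, 1749 in replicate 1 and 2527 in replicate 2. The perlecan gene unc-52, also of the basement membrane, had 7, the strongest with rank 3055 in the pooled list, 4583 in replicate 1 and 3736 in replicate 2. The genes dys-1, set-16 and egl-8 had 7 each as well and followed by the rank of their strongest entry. Per 1000 coding bases, let-2 had 1.30, tln-1 1.14, let-805 0.593, unc-52 0.538 and vab-10 0.512, against 0.166 over all genes. These genes were picked for their number of entries, so the densities are a description only.

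**Figure D4:**
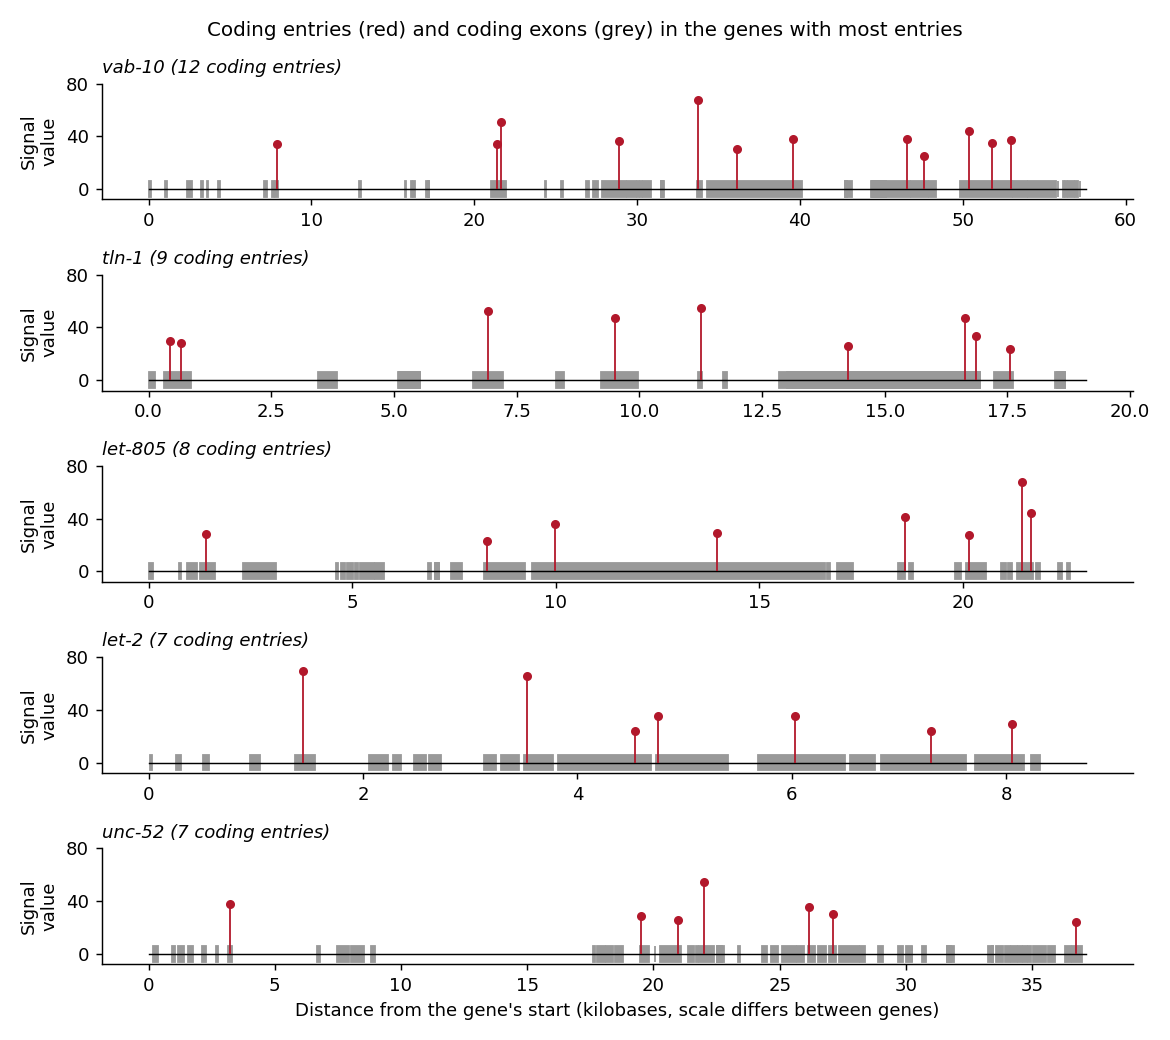
Coding entries along vab-10, tln-1, let-805, let-2 and unc-52, from the gene's annotated start on the left (x axis, kilobases) to its end. Red stems are summits with their pooled signal value (y axis), grey blocks are coding exons of any transcript and the black line is the gene. The 12 entries of vab-10 are spread over the gene with signal values of 25.1 to 67.6.

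Cuticle collagen genes stood out among the gene lists by their counts. Genes of this kind typically encode short proteins of the worm's exoskeleton, made in the epidermis, with long runs of a Gly-X-Y repeat. In it X and Y are often proline. The list was taken by name, so single members, such as col-99 with 18 coding exons, need not be cuticle components. Of 176 genes named col or known by their cuticle phenotypes, 129 (73.3%, interval 66.3 to 79.3%) had a coding entry, against 16.2% of all genes. They held 172 entries, or 0.995 per 1000 coding bases, which is 6.004 times the density over all genes. In replicate 1's own list 65.3% of the genes had one, in replicate 2's own list 65.9%, and 95 genes had one in both. Over all genes, 6.65% had one in both. Of the 129 genes, 89 held 1 entry, 37 held 2 and 3 held 3. Collagen genes supplied 4.20% of all coding entries and 13.2% of the 423 coding entries up to rank 5000. The choice of this list followed earlier results of these data, in which collagen genes stood high just below the IDR peaks, so that the count is no independent evidence.

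The strongest collagen entries lay in the second and last coding exon of their genes. The entry in col-107 had a pooled signal of 77.2 (rank 1513), 37.9 in replicate 1 (rank 1494) and 39.4 in replicate 2 (rank 1894). That in col-2 had 70.5 (rank 1801), with 40.7 in replicate 1 (rank 1278) and 29.8 in replicate 2 (rank 3466). That in col-130 had 69.5 (rank 1858) and 56.97 in replicate 1 (rank 585), and no entry of replicate 2 covered it at 50% or overlapped it at all. Their windows are shown on the coding strand with in-frame glycine codons (GGN) in capitals, since these mark the repeat.
col-107 (chrIV:1549287-1549387, plus strand): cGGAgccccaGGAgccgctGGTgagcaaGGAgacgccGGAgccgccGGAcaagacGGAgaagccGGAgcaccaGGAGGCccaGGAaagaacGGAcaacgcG
col-2 (chrIV:10084762-10084862, minus strand): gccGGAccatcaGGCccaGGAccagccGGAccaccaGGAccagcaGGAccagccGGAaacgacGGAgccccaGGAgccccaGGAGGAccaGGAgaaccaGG
col-130 (chrIV:12427892-12427992, minus strand): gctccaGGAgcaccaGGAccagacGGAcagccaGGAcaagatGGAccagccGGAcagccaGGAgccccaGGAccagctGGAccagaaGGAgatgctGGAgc
Glycine codons made up 13 of 35 codons touched by the window of col-107, 13 of 34 in col-2 and 11 of 34 in col-130. Over the 172 collagen windows they were 28.5 ± 9.42% of codons, against 6.69 ± 8.00% in the 3921 other coding windows and 20.3% of all codons of the collagen list.

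Collagen entries lay over the middle and later part of the coding sequence. Between 40% and 80% of the coding sequence lay 126 of 172 entries (73.3%), against 37.7% of all other coding entries, and the first of 10 equal parts held 2.33% against 12.8%. Last coding exons held 94 of them (54.7%, interval 47.2 to 61.9%), where 48.3% of the coding bases of these genes lie. The median distance to the nearest start was 639 bases, and 59 entries (34.3%) lay within 500 bases of one, close to the 35.2% of all coding entries. Only 28 of the 176 genes (15.9%) had an entry outside coding exons within 1000 bases of a start, against 36.2% of all genes, and 107 of the 129 hosts had none. Collagen entries were met in both replicates in 65.1% of cases (interval 57.7 to 71.8%), against 33.2% of other coding entries. From the IDR peaks to rank 5000 the shares were 90.9% and 93.1%, while below rank 15000 they were 9 of 36 (interval 13.8 to 41.1%) and 8.14%. Neighbouring entries of 1 collagen gene could match the same entry of a replicate, so some replicate entries were counted more than once. Both entries in col-108 (pooled ranks 2031 and 9655) matched rank 1616 in replicate 1 and rank 2920 in replicate 2. No collagen entry had a second copy of its central 50 bases in the genome.

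**Figure D5:**
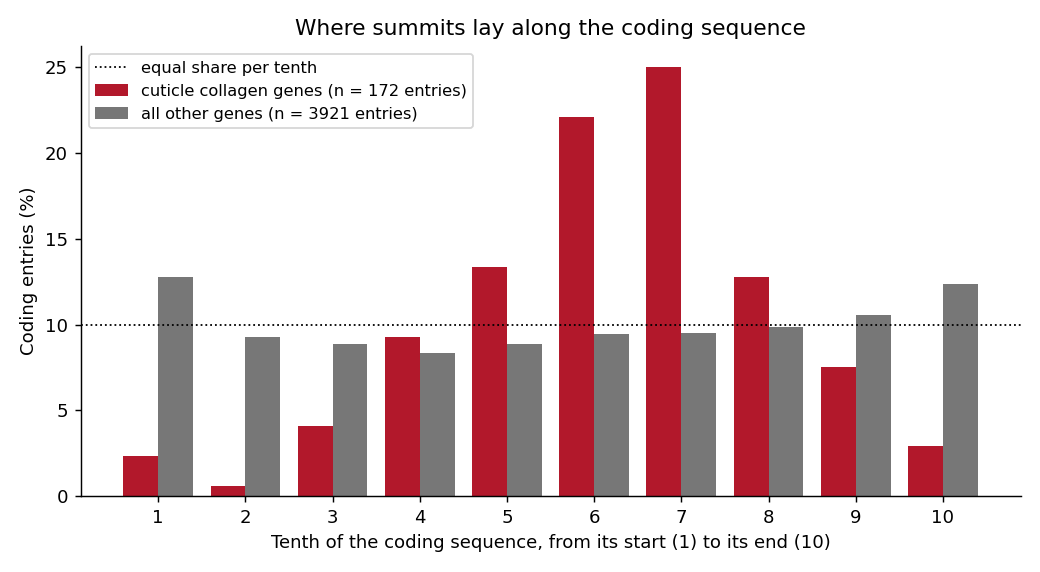
Share of coding entries (percent, y axis) in each of 10 equal parts of the host's coding sequence, from start to stop (x axis), for 172 entries in cuticle collagen genes (left bars) and 3921 in all other genes (right bars). The dotted line marks an equal share per part. Collagen entries peak in part 7 with 43 of 172, and other entries have 12.8% in part 1.

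Base composition moved with the collagen result, and its part in it was not tested. Coding sequence of the list had 54.5% GC and the windows of its entries 59.0 ± 6.61%, against 46.1 ± 8.86% in other coding windows. Densities are given by class of gene GC content, of which the highest has no upper limit. At 40 to under 45% GC there were 3 collagen genes with 1 entry in all, or 0.310 entries per 1000 coding bases, against 0.112 in 8095 other genes. At 45 to under 50% GC the density was 0.859 in 25 collagen genes, against 0.261 in 4350 other genes. At 50 to under 55% it was 0.881 in 60 collagen genes, against 0.508 in 1440 others, and at 55% or more 1.15 in 88 collagen genes, against 0.917 in 225 others. With all collagen genes left out, last exons held 18.9% of coding entries against 15.02% of coding bases, and the mean GC of windows was 46.1%.

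The other gene lists lay closer to all genes in density per coding base than the collagen genes did. Ratios given for these lists are to all genes of any GC content, and are not matched for it. Muscle sarcomere and attachment genes had a coding entry in 19 of 41 (46.3%), at 1.42 times the density of all genes and 46.1% coding GC. Their strongest were in tln-1 (rank 3035), unc-52 (rank 3055) and myo-2, a myosin heavy chain of the pharynx (rank 3586). Extracellular matrix genes had one in 10 of 22 (45.5%), at 1.62 times and 45.1% coding GC, led by let-2, let-805 (rank 1950) and vab-10 (rank 1973). The list is not limited to matrix components. It includes vab-10, whose product lies inside the cell and which supplied 12 of its 40 entries, and let-805, which supplied 8. Genes of the tubulin and actin cytoskeleton had one in 17 of 35 (48.6%), at 1.40 times and 45.4% coding GC, led by unc-33, which acts in axon guidance (rank 2717), the guanine nucleotide exchange factor gene unc-73 (rank 3267) and the ankyrin gene unc-44 (rank 3369). Cell junction and polarity genes had one in 12 of 26 (46.2%), at 1.32 times and 44.9% coding GC, led by the cadherin gene cdh-12 (rank 4404), ajm-1 of the apical junction (rank 5132) and the polarity gene par-3 (rank 5674). These lists hold long genes, and their shares of genes exceed those of all genes by more than their densities do.

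Genes of gene expression, translation, protein folding and chromatin had pooled densities of 1.03 to 2.30 times that of all genes, of which the lowest and the highest did not hold in both replicates' own lists. Chromatin and transcription genes had an entry in 48 of 143 (33.6%, 1.57 times, 44.8% coding GC), led by hda-10, the Mediator subunit gene mdt-15 (rank 1843) and taf-3 (rank 1985), which encodes a subunit of the general factor TFIID. RNA processing genes had one in 21 of 62 (33.9%, 1.47 times, 45.7% coding GC), led by the splicing factor gene sfa-1 (rank 2779), rnp-5 (rank 3188) and rsr-2 (rank 3854). Translation factor and tRNA synthetase genes had one in 18 of 74 (24.3%, 1.03 times, 44.8% coding GC), led by eif-4A3 (rank 2197), hars-1 (rank 4851) and qars-1 (rank 6971). Their density was 1.47 times that of all genes in replicate 1's own list and 0.937 times in that of replicate 2, on either side of all genes. Heat shock and chaperone genes had one in 14 of 67 (20.9%, 1.54 times, 44.99% coding GC), led by dnj-8 (rank 2328), hsp-90 (rank 3368) and hip-1 (rank 4666). Cytosolic ribosomal protein genes had one in 10 of 81 (12.3%, 1.53 times, 53.5% coding GC), led by rps-25 (rank 3887), rpl-24.2 (rank 4521) and rla-2 (rank 7069), whereas 73 of the 81 had an entry outside coding exons near a start. Per 1000 coding bases the ribosomal protein list had 0.253 entries, against 0.508 in non-collagen genes with 50 to under 55% GC. The rpl-24.2 entry matched higher-ranked entries, of rank 537 in replicate 1 and 679 in replicate 2. When only the strongest of overlapping entries was kept, 8 ribosomal protein genes had a coding entry. Histone genes had one in 7 of 50, a smaller share than that of all genes, at 2.30 times their density and 53.4% coding GC, led by his-72 (rank 5907), his-37 (rank 9142) and his-69 (rank 9223). With only the strongest of overlapping entries kept, 3 histone genes had a coding entry. The his-37 entry matched higher-ranked entries, of rank 368 in replicate 1 and 776 in replicate 2. In the replicates' own lists, 1 histone gene had a coding entry in replicate 1 and 5 in replicate 2, with densities of 0.308 times and 2.21 times that of all genes. For 2 of the 7 histone entries the central 50 bases had further copies in the genome, so reads from those copies and from the named gene cannot be told apart.

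Of the other lists, homeobox genes were above the density of all genes and chemoreceptor genes below it, in the pooled list and in each replicate's own. Homeobox genes had an entry in 21 of 88 (23.9%, interval 16.2 to 33.7%), at 1.91 times the density and 44.8% coding GC. Per 1000 coding bases they had 0.316 entries, against 0.112 in non-collagen genes with 40 to under 45% GC. The strongest were in the first coding exons of the Hox gene mab-5 (rank 2642) and of ceh-22, a pharynx homeobox gene (rank 2833), and in an inner exon of dve-1 (rank 2877). The mab-5 summit lay 164 bases from a start and ranked 1932 in replicate 1 and 5342 in replicate 2. The dve-1 summit lay 41 bases from a start of dve-1 and was coding in some transcripts only. An exon of a non-coding gene also covered the ceh-22 summit. Panneuronal and synaptic genes had one in 12 of 33 (36.4%), at 0.847 times the density and 42.6% coding GC, led by the active zone gene cla-1 (rank 1790), the synaptotagmin gene snt-1 (rank 2736) and the synapsin gene snn-1 (rank 2756). For snt-1 and snn-1 the summit lay in the first coding exon, 52 and 111 bases from a start. Nuclear hormone receptor genes had one in 44 of 273 (16.1%, 0.896 times, 41.1% coding GC), led by nhr-61 (rank 2938), nhr-119 (rank 3077) and nhr-41 (rank 3156). In the replicates' own lists their density was 0.804 times that of all genes in replicate 1 and 1.004 times in replicate 2. Chemoreceptor genes had one in 75 of 1299 (5.77%, interval 4.63 to 7.18%), at 0.365 times the density and with 37.3% coding GC. Per 1000 coding bases they had 0.0604 entries, near the 0.0680 of all non-collagen genes with under 40% GC. Their strongest were in srab-14 (rank 4823), str-46 (rank 5753) and srg-20 (rank 5906). The yolk protein genes vit-6 (rank 10451) and vit-2 (rank 18351) had entries among 6 vitellogenin genes, at 1.04 times the density of all genes in the pooled list, 0.777 times in replicate 1 and 0.697 times in replicate 2. None of the 31 major sperm protein genes, whose coding sequences have 51.3% GC, had one (0%, upper Wilson limit 11.03%), and 1 did in the list of replicate 1.

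Letters that earlier results of these data had singled out were less frequent in coding windows than in other entries. The letters GAGAGA or TCTCTC were found in 255 of 4093 coding windows (6.23%, interval 5.53 to 7.01%), against 12.7% of other entries, 11.5% of all nuclear entries and 5.67% of all stretches of the same length within coding exons. Their flanks held them in 5.67% of windows. TAATTA, which reads the same on both strands and is a core bound by LIM homeodomain proteins, was found in 170 coding windows (4.15%), against 9.68% of other entries and 8.64% of all nuclear entries. The flanks of coding entries held it in 4.48%. Where the whole window was coding, 21 of 2364 held TAATTA (0.888%), against 1.15% of coding stretches. Where the window reached beyond coding bases, 149 of 1729 did (8.62%). Among the 20 IDR members, 5 held GAGAGA or its other strand and 1 held TAATTA. A match of letters is a description and not a site.

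Coding entries were unevenly placed on chromosomes relative to coding bases. Per megabase of coding sequence, chromosome II and chromosome III each held 196, I held 186, X and IV each held 154 and V held 126. Chromosome V holds 22.6% of coding bases and had 17.2% of coding entries. It had 16.1% of all nuclear entries, so its low share was not particular to coding entries. Against all nuclear entries, X stood lowest, with 13.3% of coding entries and 17.98% of all. Chromosome II stood highest, with 19.8% and 16.9%. The share of coding entries was also the higher one on I and III, and the lower one on IV. With each autosome cut into 3 equal lengths, the middle ones held 29.9% of autosomal coding entries (interval 28.4 to 31.5%), against 33.7% of autosomal entries outside coding exons. Of autosomal coding bases 40.3% lie there. Copies of the central 50 bases elsewhere in the genome were found for 15 of 4093 coding entries (0.366%), the strongest in M151.7 with rank 7129.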

How the data were processed

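The 2 samples are biological replicates of 1 group, numbered in the labels, and both were used. The authors deposited narrowPeak lists: a relaxed list per replicate, a pooled relaxed list and IDR peaks, which derive from the relaxed lists per the deposited sample records. Each entry has a signal value set by the authors. Its scale differs between the deposited lists, so it was used only within a list. The sources used here do not give how reads were aligned and peaks called. Deposited lists on ce10 were left aside. Depth is unknown, since read numbers are not listed, and Wilson 95% intervals cover counting error only.

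A summit is the entry's start plus its summit offset, written 1-based. Gene models were those of Ensembl on WBcel235, the same sequence as ce11, and no entry passed a chromosome's end. A summit got a single class. Coding exons came before untranslated regions, then non-coding exons, introns, the 1000 bases upstream of a start, and the remaining intergenic sequence. A summit in several genes went to the one with the longest coding sequence, and exon position was read in the longest coding transcript that holds the summit. Densities use the union of a gene's coding exons. The shares of coding bases by exon position and by exon length count each gene's longest coding transcript only. GC was counted within 50 bases of the summit. Matching in the replicates took the strongest entry at 50% reciprocal overlap. With 1 group and no control there was no comparison to test, so shares are set beside those of coding bases, of other entries or of all genes.

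The members, gene lists, motifs and alternatives were chosen with earlier results of these data known. Named genes are the hosts of the 20 strongest coding entries, the 5 genes with most entries, up to 3 genes per list with the strongest entries, and the 3 entries in each direction with the largest rank difference between replicates. The genes dys-1, set-16, egl-8 and M151.7 were named after their values were seen. Of 17 gene lists, 5 symbols were not matched to the annotation and were left out. The classes of gene GC content, the split of collagen from other genes and the setting without collagen genes were added after the data were seen. Classification and matching were tested on simulated data: 768 points in made-up genes all received their true class, and 400 shifted entries were all matched correctly. Python 3.11.15 with numpy 2.4.6, pandas 2.3.3 and scipy 1.17.1 was used.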

Additional observations from a re-analysis of the deposited data

Results flagged for a closer look

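The rule on nuclear summits leaves out the mitochondrial chromosome, where 9 of the 11 entries of the pooled list also had their summit in a coding exon. This is signal outside the entries described. The list of replicate 2 held 13 mitochondrial entries, 11 of them coding, and that of replicate 1 held 1, which was not coding. Among the IDR peaks 8 of 10 mitochondrial entries were coding. Mitochondrial signal thus differed between the replicates, and no control library was analysed here to set it against.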

How the results depend on the processing

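In density against all genes, histone, translation, nuclear receptor and vitellogenin genes changed direction between the pooled list and a replicate's own, as given above; the other lists with a coding entry did not. In each replicate's own list (lowest and highest), the coding share was 18.7% to 20.6%, inner exons held 65.4% to 66.8%, last exons 18.5% to 19.1%, window GC was 45.8% to 46.0%, its excess over flanks 6.47 to 6.54 points, and the median rank percentile 56.6 to 58.7. Among the 5000 strongest entries these were 8.48%, 55.6%, 25.1%, 52.1%, 9.65 points and 16.5, with 92.9% met in both replicates and 400 host genes. Among the IDR peaks the coding share was 1.20%, inner exons held 50%, window GC was 50.3%, its excess 8.56 points, the percentile 6.57 and the hosts 20. Over 500 bases from every start, inner exons held 74.3% against 82.2% of such coding bases, last exons 23.8% against 16.6%, IDR members were 0.189% and GC was 47.1%. Counting summits coding in every transcript gave a share of 17.5%, and exon position in any transcript put 60.3% in inner exons. The share met in both replicates was 40.8% by any overlap, 13.3% by summits within 50 bases, 19.6% at 80% overlap and 32.3% with only the strongest of overlapping entries kept. Windows of 25 and 100 bases on each side gave 47.95% and 44.95% GC, with excesses of 8.46 and 5.44 points, and flanks 600 bases away gave 9.30. At least 2 summits were held by 609 genes. Without collagen genes, a setting chosen after seeing the data, the share was 18.2%, last exons held 18.9% and GC was 46.1%. The causes were not tested. Of the numbers of host genes in single lists, 49 differed by over 1.5 times from the main number and 87 did not. No paired analysis was possible because both replicates belong to 1 group. With no read numbers and no control, the depth behind an entry and its background are unknown.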
